A study of Homo sapiens with 12 samples.

Results

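Interferon-stimulated genes are the genes that a cell switches on when interferon reaches its surface, and 58 of them, listed by symbol, are followed here across the RNA-seq libraries of endothelial cells that had received a microRNA mimic or a scrambled RNA. Each symbol was matched to the gene symbol column of the deposited table, and the TPM values (transcript abundances corrected for transcript length and scaled to the same total in every library) of all its transcripts were summed. All 58 were found among 36433 symbols. Of the 58, 56 had at least 1 TPM in at least 3 of the 12 libraries and were tested together with all other symbols that passed, 13750 in all. The chemokine genes CXCL10 and CXCL11 did not pass and reached at most 0.924 and 1.64 TPM in any library.

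The cells were HMEC-1, an established line of human dermal microvascular endothelial cells. They were transfected by Lipofectamine RNAiMAX with a synthetic mimic of human miR-126, a mimic of miR-143, a mimic of miR-150 or scrambled RNA that targets no gene, each at 50 nM, and RNA was taken 48 hours later. Each of the 4 groups has 3 libraries, numbered 2, 3 and 4, and the 3 values given for a group below are always in that order. The series is about these microRNAs in disease of retinal vessels, and the comparisons are each mimic with scrambled RNA and the mimics with each other. All groups share the line, the medium, the transfection reagent and the dose, so every library comes from cells exposed to short RNA and lipid, and no library of untransfected cells was analysed here. The labels do not say that the libraries of a group come from separate cultures, so the spread that the p-values rest on may be technical, and they do not say what a shared number means. The 3 mimic groups are set against the same 3 scrambled RNA libraries.

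Type I interferons bind the receptor pair IFNAR1 and IFNAR2, and the kinases JAK1 and TYK2 then activate a complex that holds STAT2 and IRF9 and binds the interferon-stimulated response element in the promoters of these genes. Their products sense foreign RNA, cut or bind it, block the entry or release of viruses, or attach the ubiquitin-like protein ISG15 to other proteins, and several of them are parts of the pathway itself. Endothelial cells carry the receptors and the RNA sensors, and can therefore make interferon as well as answer it.

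The mimics are copies of mature microRNAs, and the part of a microRNA that pairs with its targets is the seed. The labels do not say which arm of the hairpin the mimics carry, so both arms of miR-126 and miR-143 are shown as RefSeq gives them on GRCh38.p14, 5′ to 3′, with the seed (bases 2 to 8) in capitals.
hsa-miR-126-3p: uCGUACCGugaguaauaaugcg
hsa-miR-126-5p: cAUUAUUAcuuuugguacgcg
hsa-miR-143-3p: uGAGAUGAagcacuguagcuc
hsa-miR-143-5p: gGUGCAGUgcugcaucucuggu
The arms of miR-126 lie at chr9:136670653-136670674 and chr9:136670616-136670636 and those of miR-143 at chr5:149428978-149428998 and chr5:149428944-149428965, all on the plus strand. The 4 seeds differ from each other. The third mimic was miR-150.

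Many of the members, but not all, hold a promoter sequence that their choice by name did not use. The letters GAAA, then any 2 bases, then GAAA again (searched on both strands), the core of the interferon-stimulated response element, were searched in the RefSeq promoter of each gene, the 250 bases before and 50 bases after its start. A promoter was found for 47 of the 58 members, and 29 of the 47 (61.7%) held the core, against 996 of 27305 promoters of the whole table (3.65%) and 2.95% of the 9976 promoters of tested genes. Of 49 matches, 44 began within 160 bases before the start, and 12 members held 2 matches and 4 members held 3. Windows of 30 bases around matches are given below, 5′ to 3′ on the strand of the gene, with the matched letters in capitals (on the opposite strand they read TTTC, any 2 bases, TTTC). They are examples from the genes described below. IFIT1, ISG15, IFI44L and IFI6 had some of the widest ranges over the libraries, IFITM3 the highest level and LGALS3BP a narrower range. MX1, also described below, had a range of 6.77 on the log2 scale, but its window is not shown. Its match began 11 bases after the start.
IFIT1: tagTTTCACTTTCcccTTTCGGTTTCccta
ISG15: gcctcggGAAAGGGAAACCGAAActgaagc
IFI44L: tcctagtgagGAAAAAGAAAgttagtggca
IFI6: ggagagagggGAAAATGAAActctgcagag
IFITM3: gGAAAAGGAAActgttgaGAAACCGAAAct
LGALS3BP: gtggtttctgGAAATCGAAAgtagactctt
On GRCh38.p14 these windows are chr10:89392504-89392533, chr1:1013377-1013406 and chr1:78620274-78620303 on the plus strand and chr1:27672329-27672358, chr11:320884-320913 and chr17:78979962-78979991 on the minus strand. In the ISG15 window 2 matches overlap. The letters TTC, any 3 bases and GAA, the core of the gamma-activated site, were in 12 of the 47 promoters (25.5%), against 7.88% of the whole table; they match both strands at once and can overlap the other core. A match is only a run of letters. The median differences from scrambled RNA of the 28 tested members with it and the 17 without it were 1.64 and 1.49 on the log2 scale for the miR-126 mimic, 0.93 and 0.88 for the miR-143 mimic and 0.10 and 0.19 for the miR-150 mimic.

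The deposited values are TPM, which carry no read depth. All 10 endothelial markers were detected in all 12 libraries, from PECAM1 at 166 to 688 TPM and CDH5 at 216 to 471 TPM to VWF at 13.0 to 35.5 TPM and CLDN5 at 3.88 to 24.3 TPM. Leukocyte markers summed to 31.6 to 73.4 TPM over 10 genes, most of it CD68, while PTPRC stayed at or below 1.55 TPM and CD3E at or below 0.112 TPM. The miR-143 library numbered 4 and the miR-150 library numbered 4 stood apart: 12606 and 12299 symbols reached 1 TPM in them, against 12901 to 13564 in the other 10 libraries, and ribosomal protein genes took 24.0% of the TPM in that miR-150 library and 13.5% to 17.9% in all others. The libraries numbered 3 stood apart in the members themselves, in every group, as described next. In bulk RNA, a smaller number of responding cells and a lower level in each cell cannot be told apart.

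The summed level of the 58 genes was highest with the miR-126 mimic within each library number, followed by miR-143, miR-150 and scrambled RNA. The sum was 6162, 18115 and 5285 TPM with the miR-126 mimic, 4813, 13070.0 and 4531 TPM with the miR-143 mimic, 3622, 7854 and 3379.9 TPM with the miR-150 mimic and 2611, 6292 and 2411 TPM with scrambled RNA. The library numbered 3 was far above its companions in every group, and the scrambled RNA library numbered 3 lay above the miR-126 libraries numbered 2 and 4, so the groups overlapped. Divided by the scrambled RNA library of the same number, the sums were 2.36, 2.88 and 2.19 with the miR-126 mimic, 1.84, 2.08 and 1.88 with the miR-143 mimic and 1.39, 1.25 and 1.40 with the miR-150 mimic. IFITM3 and IFITM2 alone made up 38.7, 21.6 and 43.0% of the sum with the miR-126 mimic, 50.3, 28.6 and 57.3% with miR-143, 60.2, 37.2 and 67.3% with miR-150 and 56.1, 34.9 and 54.3% with scrambled RNA. The mean of log2(TPM + 1) over the 56 tested members, which weights each gene equally, was 5.58, 7.22 and 5.19 with the miR-126 mimic, 4.82, 6.45 and 4.47 with the miR-143 mimic, 4.004, 5.64 and 3.61 with the miR-150 mimic and 3.78, 5.37 and 3.67 with scrambled RNA. On this scale the miR-150 library numbered 4 lay just below its scrambled RNA counterpart.

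**Figure D1:**
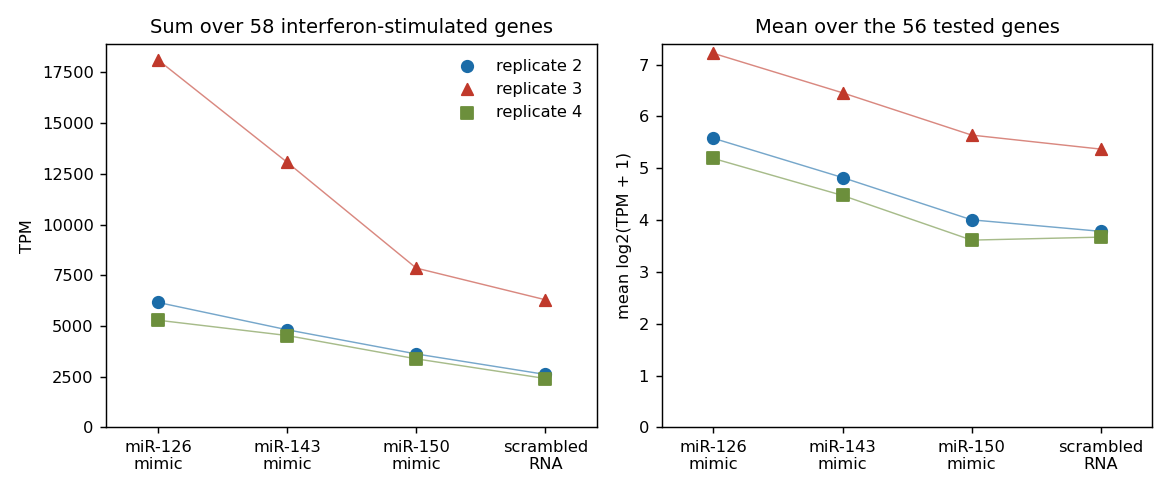
Level of the interferon-stimulated genes in each library: the left panel gives the sum of TPM over the 58 genes and the right panel the mean of log2(TPM + 1) over the 56 tested genes, each point being 1 library and each line joining the libraries of 1 number. The libraries numbered 3 are the highest of their group in every group, with sums of 18115 TPM with the miR-126 mimic and 6292 TPM with scrambled RNA.

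Few other genes varied as much between libraries. The range of log2(TPM + 1) from the lowest to the highest of the 12 libraries had a median of 3.63 over the 56 tested members and of 1.08 over all 13750 tested genes, and 24 of the 56 members but only 50 of all tested genes had a range of 4 or more. MX2, a GTPase that blocks retroviruses, had the widest range (7.44) and IFITM2 the narrowest (1.01). The miR-126 library numbered 3 was the highest of the 12 for 55 of the 56 members, and the exception, GBP2, peaked in the miR-143 library numbered 2. The lowest library was the miR-150 one numbered 4 for 26 members and the scrambled RNA one numbered 4 for 21.

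With the miR-126 mimic all 56 tested members had a positive mean difference from scrambled RNA, against 63.6% of all tested genes. The median over the members was 1.64 on the log2(TPM + 1) scale (0.43 to 3.58), against a median of 0.10 over all tested genes. A difference of 1 or more was found for 44 of the 56 members (78.6%) and for 2.25% of all tested genes. The spread between libraries was wide, and in the fit across all genes by group (limma, two-sided, Benjamini-Hochberg adjusted over 13750 genes, threshold 0.05), 4 members rose and none fell, against 3.37% of all tested genes called higher and 1.73% called lower. At an unadjusted p under 0.05 there were 34. Here and below, the share of all tested genes at an unadjusted p is not given, so such counts have no background beside them. All 3 miR-126 libraries lay above all 3 scrambled RNA libraries for 23 of the 56 members, against 23.1% of all tested genes, and each miR-126 library lay above the scrambled RNA library of its own number for 55, against 41.2% of all tested genes. With the library number added to the fit as a replicate block, which compares libraries within a number, 53 members rose and none fell, against 11.8% of all tested genes called higher and 5.11% called lower; the numbers meet the pairing criterion in this comparison. XAF1, EIF2AK2 and ADAR did not pass even then. The count of 4 became 1 without the miR-126 library numbered 2, 2 without any one of the other miR-126 libraries or of the scrambled RNA libraries numbered 2 and 4, 6 without the scrambled RNA library numbered 3, and 31 without all libraries numbered 3 (34 with the block). The median difference was 1.02 when the miR-126 library numbered 3 was left out. Without all libraries numbered 3, 55 of the 56 differences were positive, against 62.6% of all tested genes. Here and below, members called in fits without some libraries are counted without the share of all tested genes called. Such counts have no background beside them.

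The 4 members that rose were RARRES3, GBP2, IRF1 and IRF7, which on GRCh38 lie at chr11:63536809-63546462 (plus strand) and at chr1:89106132-89150456, chr5:132481609-132490798 and chr11:612553-615999 (minus strand) in the GENCODE annotation. RARRES3, an enzyme that acts on phospholipids and was first known as a retinoid-induced gene, had 33.3, 38.7 and 32.2 TPM with the miR-126 mimic, 14.0, 21.0 and 17.1 TPM with the miR-143 mimic, 7.60, 12.3 and 11 TPM with the miR-150 mimic and 8.90, 11.9 and 6.65 TPM with scrambled RNA. It was the only tested member whose miR-126 libraries lay above all libraries of the other 3 groups, and the libraries numbered 3 stood out less than for most members. The log2 difference between the miR-126 mimic and scrambled RNA was 1.85 ± 0.23 (SE, n = 3 libraries in each group here and below; limma adjusted p = 0.00143), and it stayed past the threshold whichever of the 6 libraries was left out. GBP2, a GTPase that attacks the vacuoles of intracellular pathogens, had 8.36, 7.18 and 7.28 TPM with the miR-126 mimic, 8.64, 4.63 and 6.16 TPM with the miR-143 mimic, 3.14, 2.49 and 3.58 TPM with the miR-150 mimic and 3.16, 2.16 and 2.85 TPM with scrambled RNA. Its miR-126 libraries lay above its scrambled RNA libraries, at low levels throughout; GBP2 overlaps its paralog GBP7 on the same strand. Against scrambled RNA, the log2 difference was 1.22 ± 0.22 (limma adjusted p = 0.0103), and the adjusted p was 0.0564 without the miR-126 library numbered 2.

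The transcription factors include the interferon-pathway parts STAT2 and IRF9, and IRF1 and IRF7, which bind promoters of interferon genes. IRF7, the factor that amplifies type I interferon production, had 45.9, 104 and 39.5 TPM with the miR-126 mimic, 28.6, 70.3 and 36.1 TPM with the miR-143 mimic, 14.8, 36.0 and 21.7 TPM with the miR-150 mimic and 9.49, 25.3 and 7.07 TPM with scrambled RNA. IRF1, which is also induced by interferon gamma, had 60.7, 79.9 and 57.0 TPM with the miR-126 mimic, 49.7, 72.9 and 54.8 TPM with the miR-143 mimic, 41.6, 49.7 and 33.3 TPM with the miR-150 mimic and 30.7, 44.8 and 27.1 TPM with scrambled RNA. For both genes all miR-126 libraries lay above all scrambled RNA libraries. In the limma fit the log2 difference was 2.16 ± 0.51 for IRF7 (limma adjusted p = 0.0347) and 0.94 ± 0.22 for IRF1 (limma adjusted p = 0.0346). Each call held in only 1 of the 6 fits that left out a library, that without the scrambled RNA library numbered 3 (adjusted p = 0.0185 for IRF7 and 0.0219 for IRF1); in the other 5 fits the adjusted p was 0.0646 to 0.158 for IRF7 and 0.0736 to 0.160 for IRF1. IRF9, the DNA-binding part of the complex and the highest of the 4 in TPM, had 116, 166 and 86.1 TPM with the miR-126 mimic, 108, 162 and 83.6 TPM with the miR-143 mimic, 58.8, 139.5 and 45.4 TPM with the miR-150 mimic and 49.2, 125 and 43.9 TPM with scrambled RNA. Its groups overlapped, since the scrambled RNA library numbered 3 lay above the miR-126 libraries numbered 2 and 4. The log2 difference was 0.86 ± 0.47 (limma adjusted p = 0.350, and 0.00709 with the block). STAT2 ranged from 22.2 to 130.1 TPM over the 12 libraries. IRF7 and IRF9 each cover 2 Ensembl gene entries under 1 symbol.

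**Figure D2:**
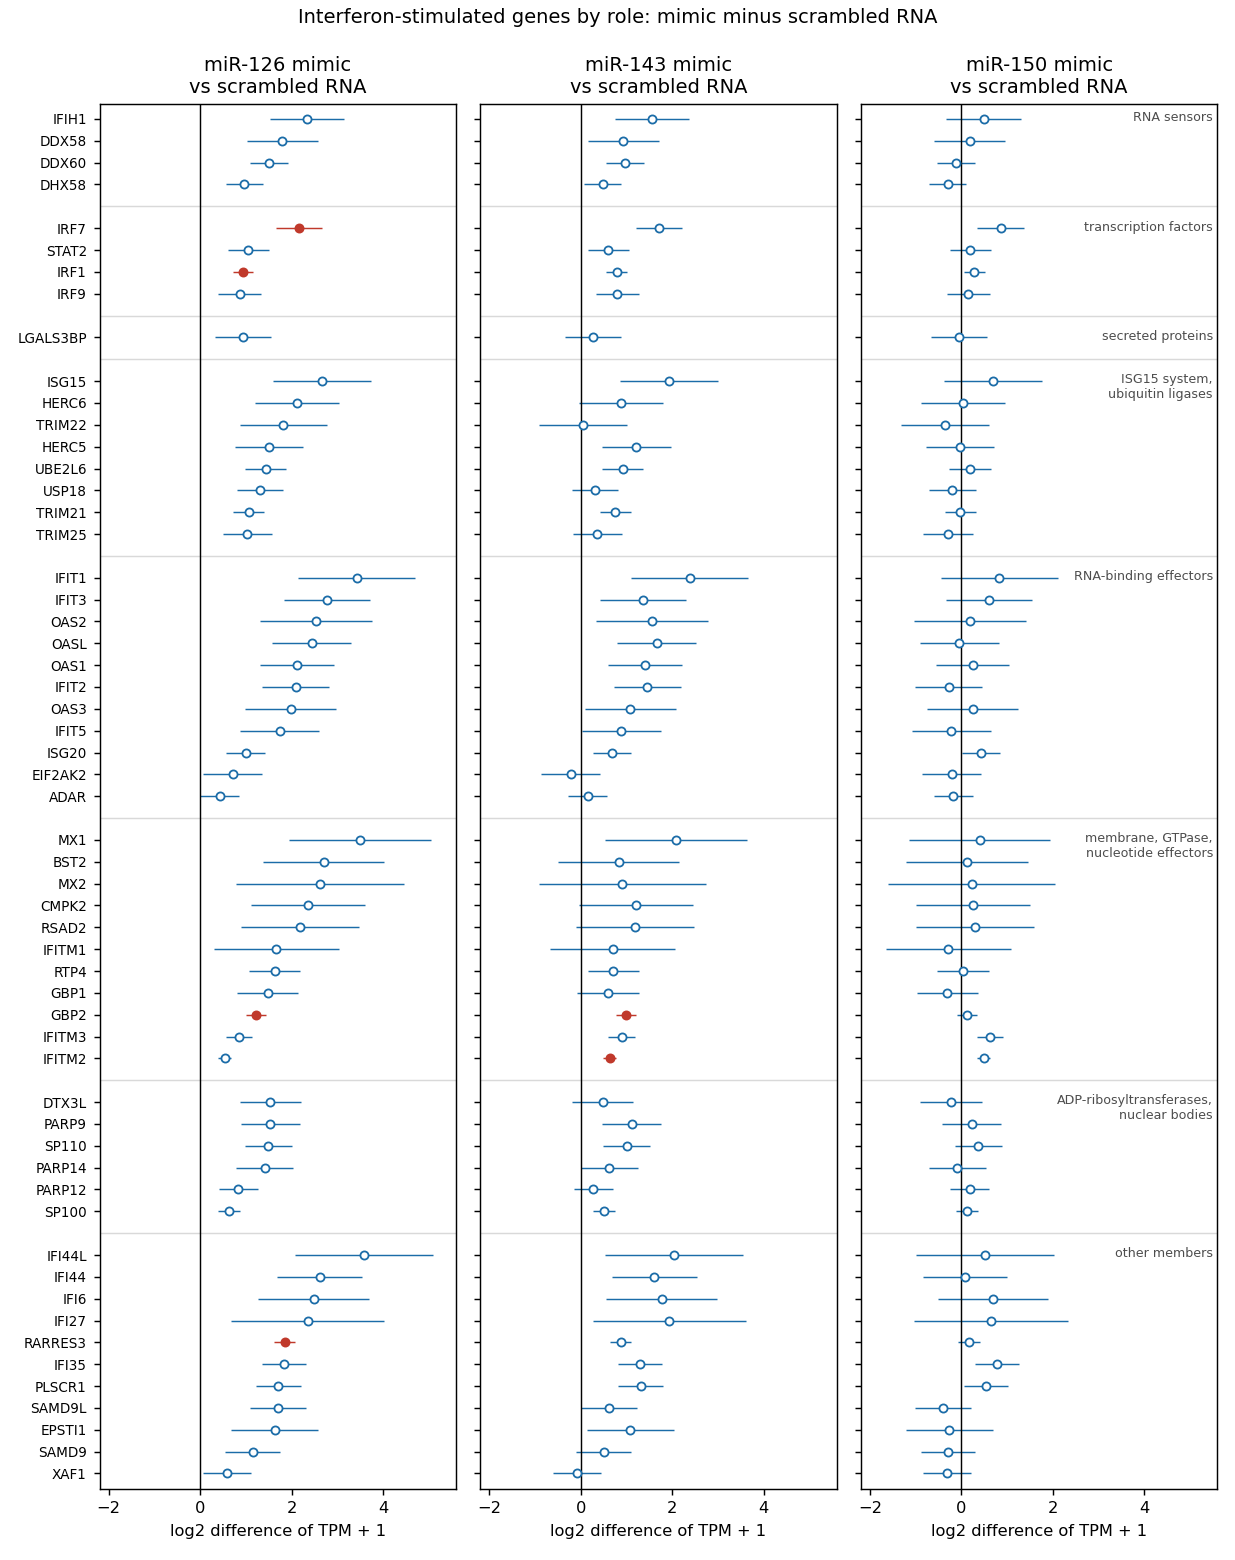
Log2 difference of TPM + 1 between each mimic and scrambled RNA for the 56 tested interferon-stimulated genes, grouped by role; points are differences of group means, bars are the standard error from limma (3 libraries in each group), and filled red points passed the adjusted threshold of 0.05. All 56 points lie above 0 for the miR-126 mimic, 54 for the miR-143 mimic and 35 for the miR-150 mimic, and most bars are wide. Of all tested genes, 63.6%, 44.5% and 36.8% had a positive difference in these comparisons.

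The 4 RNA sensors are the helicases that detect foreign RNA in the cytoplasm and the proteins that tune them. IFIH1, the sensor MDA5 of long double-stranded RNA, had 27.3, 97.9 and 20.1 TPM with the miR-126 mimic, 14.6, 61.9 and 11.2 TPM with the miR-143 mimic, 7.30, 25.5 and 4.74 TPM with the miR-150 mimic and 4.23, 17.2 and 3.83 TPM with scrambled RNA. Its miR-126 libraries lay above all scrambled RNA libraries, the miR-126 library numbered 4 by a small margin. DDX58, the sensor RIG-I, had 27.8, 99.6 and 19.4 TPM with the miR-126 mimic, 14.8, 54.3 and 10.4 TPM with the miR-143 mimic, 8.59, 30.2 and 6.05 TPM with the miR-150 mimic and 6.72, 22.5 and 6.88 TPM with scrambled RNA. Here the scrambled RNA library numbered 3 lay above the miR-126 library numbered 4. Against scrambled RNA, the log2 difference was 2.34 ± 0.81 for IFIH1 (limma adjusted p = 0.131, and 1.03e-05 with the block) and 1.79 ± 0.78 for DDX58 (limma adjusted p = 0.235, and 0.000105 with the block). DDX60, a helicase that aids RIG-I signalling, had 24.7, 42.7 and 16.7 TPM with the miR-126 mimic, 18.6, 24.7 and 12.04 TPM with the miR-143 mimic, 6.65, 12.5 and 5.67 TPM with the miR-150 mimic and 8.05, 14.4 and 5.31 TPM with scrambled RNA. DHX58, the regulator LGP2, had 3.83, 6.78 and 2.06 TPM with the miR-126 mimic, 2.02, 5.14 and 1.27 TPM with the miR-143 mimic, 0.783, 1.62 and 0.774 TPM with the miR-150 mimic and 1.42, 2.18 and 1.01 TPM with scrambled RNA. DDX60 did not overlap between the miR-126 mimic and scrambled RNA, whereas DHX58, a low gene, did. All 4 sensors rose with the block and none without it.

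The RNA-binding effectors were the group with the largest median difference for the miR-126 mimic, 2.08 over 11 tested members (0.43 to 3.42), of which none passed the threshold without the block and 9 rose with it. IFIT1, which binds foreign RNA lacking a host cap mark, had 62.7, 374 and 40.6 TPM with the miR-126 mimic, 23.2, 207 and 21.7 TPM with the miR-143 mimic, 7.79, 82.6 and 5.22 TPM with the miR-150 mimic and 3.59, 41.0 and 3.20 TPM with scrambled RNA. OAS1, which makes oligoadenylates on double-stranded RNA and was the highest of this group in TPM, had 173, 521 and 144 TPM with the miR-126 mimic, 97.4, 377 and 80.2 TPM with the miR-143 mimic, 44.3, 186 and 30.6 TPM with the miR-150 mimic and 34.01, 129 and 34.2 TPM with scrambled RNA. For IFIT1 the scrambled RNA library numbered 3 lay just above the miR-126 library numbered 4, while for OAS1 the groups did not overlap. In the limma fit the log2 difference was 3.42 ± 1.28 for IFIT1 (limma adjusted p = 0.159, and 5.83e-06 with the block) and 2.12 ± 0.81 for OAS1 (limma adjusted p = 0.168, and 2.31e-05 with the block). IFIT1, IFIT2 and IFIT3 overlap LIPA on the opposite strand, and the strand of the libraries is not stated in the sources used here.

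EIF2AK2, the kinase PKR that halts translation, had 72.0, 136 and 59.5 TPM with the miR-126 mimic, 47.7, 85.4 and 19.8 TPM with the miR-143 mimic, 46.5, 102 and 17.1 TPM with the miR-150 mimic and 35.6, 86.3 and 42.3 TPM with scrambled RNA. It was highest with the miR-126 mimic within each number, and low in the miR-143 and miR-150 libraries numbered 4. Its log2 difference for the miR-126 mimic was 0.71 ± 0.64 (limma adjusted p = 0.617, and 0.132 with the block). ADAR, which edits double-stranded RNA, had 139, 239 and 118 TPM with the miR-126 mimic, 140.0, 195 and 80.2 TPM with the miR-143 mimic, 117, 172 and 54.6 TPM with the miR-150 mimic and 96.9, 157 and 105 TPM with scrambled RNA. The scrambled RNA library numbered 3 lay above the miR-126 libraries numbered 2 and 4. The log2 difference was 0.43 ± 0.43 (limma adjusted p = 0.662, and 0.176 with the block), the smallest of the 56. Among the other effectors, IFIT2 had 23.8, 93.5 and 20.6 TPM with the miR-126 mimic, 17.7, 50.3 and 13.3 TPM with the miR-143 mimic, 3.83, 16.2 and 3.44 TPM with the miR-150 mimic and 5.42, 17.1 and 4.69 TPM with scrambled RNA. IFIT5 had 17.1, 57.3 and 11.8 TPM with the miR-126 mimic, 8.71, 33.0 and 5.98 TPM with the miR-143 mimic, 3.09, 18.1 and 1.95 TPM with the miR-150 mimic and 3.76, 17.1 and 3.22 TPM with scrambled RNA. OASL, a relative of the OAS enzymes that does not make oligoadenylates, had 16.3, 80.7 and 14.0 TPM with the miR-126 mimic, 9.31, 42.01 and 8.61 TPM with the miR-143 mimic, 2.28, 12.3 and 1.81 TPM with the miR-150 mimic and 2.32, 11.8 and 2.15 TPM with scrambled RNA. All miR-126 libraries exceeded all scrambled RNA libraries for IFIT2 and OASL but not for IFIT5. IFIT3 ranged from 7.14 to 297 TPM, OAS2 from 7.11 to 422 TPM, OAS3 from 15.9 to 418 TPM and the exonuclease gene ISG20 from 21.8 to 114 TPM over the 12 libraries.

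ISG15 is conjugated to proteins by a chain of enzymes that includes UBE2L6 and HERC5, and is removed by USP18, which also damps the interferon receptor. ISG15 had 259, 1375 and 201 TPM with the miR-126 mimic, 123, 905 and 138 TPM with the miR-143 mimic, 49.8, 336 and 69.6 TPM with the miR-150 mimic and 41.2, 245 and 26.3 TPM with scrambled RNA. It varied widely between library numbers as well as between groups, and the groups overlapped. The scrambled RNA library numbered 3 lay above the miR-126 library numbered 4 and just below the miR-126 library numbered 2. The log2 difference for the miR-126 mimic was 2.67 ± 1.07 (limma adjusted p = 0.195, and 3.84e-05 with the block). HERC5 had 5.47, 20.6 and 3.998 TPM with the miR-126 mimic, 4.18, 17.7 and 2.93 TPM with the miR-143 mimic, 1.25, 5.83 and 0.845 TPM with the miR-150 mimic and 1.503, 5.43 and 0.882 TPM with scrambled RNA, and its scrambled RNA library numbered 3 lay between the miR-126 libraries numbered 4 and 2. USP18 had 31.9, 91.5 and 23.9 TPM with the miR-126 mimic, 13.7, 40.3 and 14.6 TPM with the miR-143 mimic, 10.5, 22.4 and 11.2 TPM with the miR-150 mimic and 13.3, 20.8 and 14.98 TPM with scrambled RNA. For USP18 every miR-126 library was above every scrambled RNA library, while the miR-143 and miR-150 libraries numbered 2 and 4 lay within or below the scrambled RNA range. UBE2L6 ranged from 51.2 to 324 TPM and HERC6, a ligase related to HERC5, from 1.46 to 57.2 TPM over the 12 libraries.

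The tripartite motif ligases in the same group were also highest in the miR-126 library numbered 3. TRIM21, which binds antibodies inside the cell, had 36.5, 75.0 and 34.8 TPM with the miR-126 mimic, 29.3, 51.3 and 33.2 TPM with the miR-143 mimic, 19.2, 28.4 and 17.0 TPM with the miR-150 mimic and 20.4, 30.8 and 15.5 TPM with scrambled RNA. TRIM22, which restricts viruses, had 43.3, 201 and 30.7 TPM with the miR-126 mimic, 13.3, 52.5 and 8.15 TPM with the miR-143 mimic, 11.7, 51.6 and 3.67 TPM with the miR-150 mimic and 11.6, 39.5 and 11.6 TPM with scrambled RNA. TRIM25, which acts on RIG-I signalling, had 81.3, 136 and 66.1 TPM with the miR-126 mimic, 65.6, 82.4 and 33.1 TPM with the miR-143 mimic, 37.4, 77.6 and 15.1 TPM with the miR-150 mimic and 32.6, 72.4 and 34.995 TPM with scrambled RNA. TRIM21 did not overlap between the miR-126 mimic and scrambled RNA, and TRIM22 and TRIM25 did, through the scrambled RNA library numbered 3. All 8 members of the ISG15 and ligase group rose with the miR-126 mimic in the fit with the block, and none did without it. TRIM22 overlaps TRIM5, and TRIM25 overlaps DGKE.

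Among the membrane proteins, GTPases and nucleotide-modifying enzymes, GBP2 passed the threshold without the block and all 11 rose with it. MX1, a GTPase that traps viral ribonucleoproteins, had 155, 851 and 93.6 TPM with the miR-126 mimic, 38.8, 512 and 31.5 TPM with the miR-143 mimic, 10.1, 219.9 and 7.14 TPM with the miR-150 mimic and 6.81, 142 and 6.82 TPM with scrambled RNA. The library numbered 3 of each group was far above its companions, and scrambled RNA overlapped the miR-126 mimic. Against scrambled RNA, the log2 difference was 3.50 ± 1.55 (limma adjusted p = 0.243, and 0.000141 with the block). IFITM3, which blocks the fusion of entering viruses and was the most abundant member, had 1786, 3171 and 1719 TPM with the miR-126 mimic, 1814, 3013 and 1931 TPM with the miR-143 mimic, 1556, 2286 and 1722 TPM with the miR-150 mimic and 1043, 1677 and 946 TPM with scrambled RNA. IFITM2, its close paralog, had 598, 735 and 555 TPM with the miR-126 mimic, 609, 730.5 and 666 TPM with the miR-143 mimic, 624, 632 and 554 TPM with the miR-150 mimic and 421, 519 and 364 TPM with scrambled RNA. For both genes every miR-126 and every miR-143 library lay above every scrambled RNA library, and for IFITM2 every miR-150 library as well. The log2 difference for the miR-126 mimic was 0.85 ± 0.29 for IFITM3 (limma adjusted p = 0.122, and 0.000339 with the block) and 0.54 ± 0.14 for IFITM2 (limma adjusted p = 0.0561, and 0.00375 with the block). IFITM2 and IFITM3 are nearly identical in sequence and IFITM1 and IFITM2 overlap, so reads may have been divided between them.

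The third IFITM gene behaved less evenly. IFITM1 had 32.8, 341 and 22.5 TPM with the miR-126 mimic, 24.9, 167 and 7.53 TPM with the miR-143 mimic, 6.05, 103 and 5.53 TPM with the miR-150 mimic and 11.3, 55.9 and 11.3 TPM with scrambled RNA. GBP1, the relative of GBP2 that coats bacteria, had 43.7, 137 and 33.5 TPM with the miR-126 mimic, 26.1, 62.8 and 18.9 TPM with the miR-143 mimic, 11.7, 41.1 and 8.89 TPM with the miR-150 mimic and 16.2, 39.96 and 13.1 TPM with scrambled RNA. Both overlapped between the miR-126 mimic and scrambled RNA through the scrambled RNA library numbered 3. The lowest values of any tested member were in this group: RSAD2, the enzyme viperin that makes a chain-terminating nucleotide, ranged from 0.0221 to 50.6 TPM and its head-to-head neighbour CMPK2 from 0.0376 to 57.4 TPM, and in both genes the 3 scrambled RNA libraries lay below 3 TPM. BST2, the tether that holds budding viruses, ranged from 1.14 to 155 TPM, MX2 from 0.680 to 290.2 TPM and the chaperone gene RTP4 from 0.359 to 12.3 TPM.

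The ADP-ribosyltransferases and nuclear body proteins had smaller differences, with a median of 1.45 for the miR-126 mimic over 6 tested members, and all 6 rose with the block only. SP100, a scaffold of nuclear bodies and the highest of the group in TPM, had 216, 370.3 and 196 TPM with the miR-126 mimic, 217, 296 and 190.3 TPM with the miR-143 mimic, 167, 211 and 152 TPM with the miR-150 mimic and 143, 188 and 155 TPM with scrambled RNA. DTX3L, a ubiquitin ligase that works with PARP9, had 62.9, 134 and 47.9 TPM with the miR-126 mimic, 31.6, 71.5 and 18.8 TPM with the miR-143 mimic, 20.6, 52.6 and 8.33 TPM with the miR-150 mimic and 17.3, 49.2 and 17.8 TPM with scrambled RNA. SP100 did not overlap between the miR-126 mimic and scrambled RNA, while DTX3L did by a narrow margin. In the limma fit the log2 difference was 0.63 ± 0.24 for SP100 (limma adjusted p = 0.168, and 0.00519 with the block) and 1.54 ± 0.67 for DTX3L (limma adjusted p = 0.237, and 0.00167 with the block). PARP14 had 70.6, 161 and 66.4 TPM with the miR-126 mimic, 48.5, 108 and 27.6 TPM with the miR-143 mimic, 32.0, 73.1 and 13.4 TPM with the miR-150 mimic and 24.8, 59.2 and 26.0 TPM with scrambled RNA. PARP9, which shares a promoter region with DTX3L on the opposite strand, ranged from 13.8 to 125 TPM, PARP12 from 33.7 to 139 TPM and SP110 from 20.0 to 152 TPM.

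The other members include the mitochondrial proteins IFI6 and IFI27 and the IFI44 pair. IFI6, the most abundant of them, had 333, 1746 and 267 TPM with the miR-126 mimic, 162, 1318 and 164 TPM with the miR-143 mimic, 76.5, 624 and 77.0 TPM with the miR-150 mimic and 46.9, 502 and 36.3 TPM with scrambled RNA. IFI44L had 29.8, 193 and 18.6 TPM with the miR-126 mimic, 9.44, 78.0 and 4.74 TPM with the miR-143 mimic, 1.30, 43.1 and 1.03 TPM with the miR-150 mimic and 0.552, 28.0 and 0.520 TPM with scrambled RNA. In both genes the library numbered 3 of scrambled RNA was above the miR-126 library numbered 4, so the groups overlapped. The log2 difference was 2.48 ± 1.21 for IFI6 (limma adjusted p = 0.292, and 5.24e-05 with the block) and 3.58 ± 1.51 for IFI44L, the largest of the 56 (limma adjusted p = 0.219, and 0.000117 with the block). EPSTI1 had 31.3, 114 and 21.7 TPM with the miR-126 mimic, 18.9, 86.0 and 14.7 TPM with the miR-143 mimic, 4.66, 43.2 and 5.64 TPM with the miR-150 mimic and 8.38, 37.7 and 6.87 TPM with scrambled RNA. The paralogs SAMD9 and SAMD9L curb cell growth and poxviruses. SAMD9 had 28.5, 62.6 and 22.6 TPM with the miR-126 mimic, 21.7, 40.4 and 11.4 TPM with the miR-143 mimic, 13.7, 25.5 and 4.75 TPM with the miR-150 mimic and 10.7, 24.8 and 12.5 TPM with scrambled RNA. SAMD9L had 32.0, 64.5 and 26.4 TPM with the miR-126 mimic, 18.3, 32.0 and 8.93 TPM with the miR-143 mimic, 10.2, 18.1 and 2.56 TPM with the miR-150 mimic and 7.90, 18.5 and 9.04 TPM with scrambled RNA. Of the 3 genes only SAMD9L had no overlap between the miR-126 mimic and scrambled RNA. IFI27 ranged from 15.9 to 1839.8 TPM, IFI44 from 9.499 to 320.1 TPM, IFI35 from 13.2 to 135 TPM and PLSCR1 from 59.9 to 479 TPM over the 12 libraries.

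XAF1, which binds an inhibitor of apoptosis, is a low gene without the peak in the scrambled RNA library numbered 3 that most members had. It had 2.36, 9.39 and 1.14 TPM with the miR-126 mimic, 1.60, 2.86 and 0.841 TPM with the miR-143 mimic, 1.60, 2.27 and 0.357 TPM with the miR-150 mimic and 1.74, 1.79 and 1.88 TPM with scrambled RNA. The scrambled RNA libraries lay close together, and the miR-126 group was high only in the library numbered 3. Its log2 difference was 0.59 ± 0.52 (limma adjusted p = 0.605, and 0.300 with the block), and -0.064 without the miR-126 library numbered 3. LGALS3BP, a secreted glycoprotein that binds galectins and the single secreted member that was tested, had 157, 462 and 145 TPM with the miR-126 mimic, 97.6, 308 and 86.5 TPM with the miR-143 mimic, 90.0, 214 and 68.7 TPM with the miR-150 mimic and 88.0, 213 and 78.7 TPM with scrambled RNA. Its libraries numbered 3 were the 4 highest of the 12. Against scrambled RNA, the log2 difference was 0.94 ± 0.62 (limma adjusted p = 0.457, and 0.000338 with the block).

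With the miR-143 mimic 54 of the 56 members had a positive difference from scrambled RNA, against 44.5% of all tested genes. The median over the members was 0.90 on the log2 scale (-0.22 to 2.38), against a median of -0.043 over all tested genes. Of the 56, 2 rose in the fit by group and none fell, against 1.84% of all tested genes called higher and 1.48% called lower, and 10 had an unadjusted p under 0.05. All 3 miR-143 libraries lay above all 3 scrambled RNA libraries for 9 members, against 11.4% of all tested genes. The 2 genes that rose were GBP2, with a log2 difference of 0.98 ± 0.22 (limma adjusted p = 0.0352), and IFITM2, with 0.63 ± 0.14 (limma adjusted p = 0.0381). Without one library, GBP2 passed only when the miR-143 library numbered 3 was left out (adjusted p = 0.0302, otherwise 0.0947 to 0.122), and IFITM2 only without the scrambled RNA library numbered 3 (adjusted p = 0.0235, otherwise 0.0653 to 0.180). The count of 2 was 0 without the miR-143 library numbered 2 or 4 or the scrambled RNA library numbered 2 or 4, 1 without the miR-143 library numbered 3, 4 without the scrambled RNA library numbered 3, and 17 without all libraries numbered 3. The median difference was 0.45 without the miR-143 library numbered 3 and 1.42 without the scrambled RNA library numbered 3. Without all libraries numbered 3, 53 of the 56 differences were positive, against 45.3% of all tested genes. The fit with the block called 36 members higher and none lower, against 7.04% of all tested genes called higher and 5.87% called lower. Not every number met the pairing criterion in this comparison.

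Other members named above had wider spreads in this comparison. ISG15 had a log2 difference of 1.93 ± 1.07 (limma adjusted p = 0.408), IFIT1 one of 2.38 ± 1.28 (adjusted p = 0.386) and MX1 one of 2.08 ± 1.55 (adjusted p = 0.561). RARRES3, IRF1 and IRF7 came closer to the threshold. RARRES3 had a log2 difference of 0.87 ± 0.23 (limma adjusted p = 0.0686), IRF1 one of 0.79 ± 0.22 (adjusted p = 0.0892) and IRF7 one of 1.71 ± 0.51 (adjusted p = 0.105), and for all 3 genes the miR-143 libraries lay above the scrambled RNA libraries. The 2 members with a negative difference were XAF1 (-0.084 ± 0.52, limma adjusted p = 0.960) and EIF2AK2 (-0.22 ± 0.64, adjusted p = 0.900); for EIF2AK2 the miR-143 library numbered 4 held 19.8 TPM. Without the miR-143 and miR-150 libraries numbered 4 the differences were 0.18 for XAF1 and 0.33 for EIF2AK2. Each miR-143 library was above the scrambled RNA library of its own number for 47 of the 56 members, against 22.7% of all tested genes. By role, the median difference was 1.37 for the RNA-binding effectors, 1.30 for the other members, 0.95 for the RNA sensors, 0.89 for the membrane and GTPase group, 0.82 for the ISG15 and ligase group, 0.79 for the transcription factors and 0.57 for the ADP-ribosyltransferases and nuclear body proteins.

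**Figure D3:**
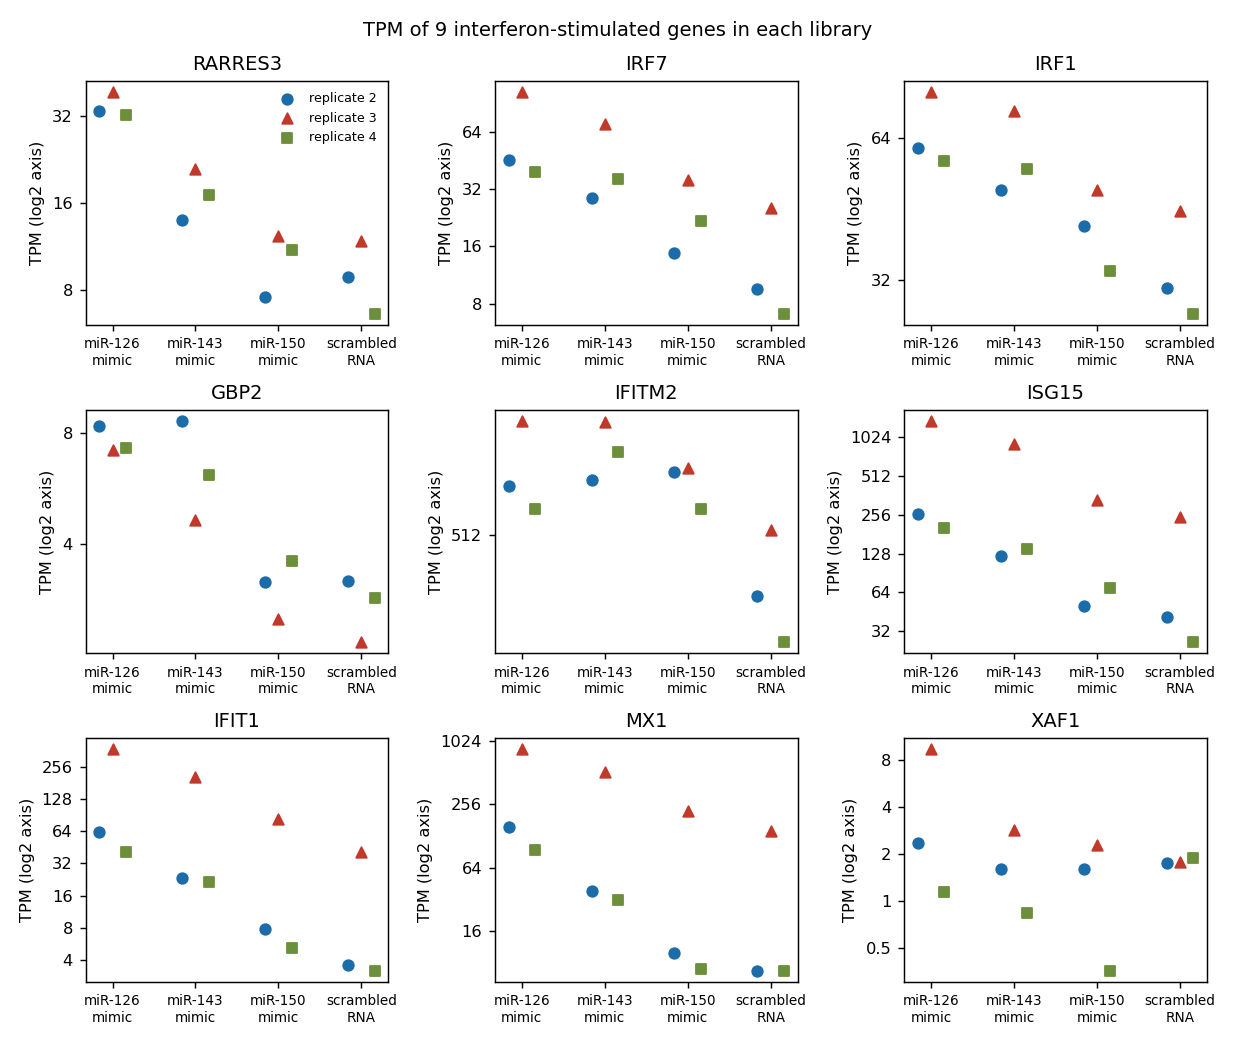
TPM of 9 interferon-stimulated genes in each of the 12 libraries on a log2 axis, by group, with 1 symbol for each library number. RARRES3, IRF7, IRF1, GBP2 and IFITM2 separate the miR-126 and miR-143 mimics from scrambled RNA, whereas in ISG15, IFIT1 and MX1 the library numbered 3 of each group is far above its companions and the groups overlap; XAF1 is similar in the 3 scrambled RNA libraries.

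With the miR-150 mimic no member passed the threshold in either direction in the limma fit by group, against 1.08% of all tested genes called higher and 2.23% called lower, and 1 member, IFITM2, had an unadjusted p under 0.05. The median difference over the 56 members was 0.16 on the log2 scale (-0.40 to 0.86), against -0.11 over all tested genes. IFITM2 had a log2 difference of 0.48 ± 0.14 (limma adjusted p = 0.0994), and its 3 miR-150 libraries lay above its 3 scrambled RNA libraries; it was the only member without overlap, against 6.87% of all tested genes. IRF7 had the largest difference, 0.86 ± 0.51 (limma adjusted p = 0.431), with each miR-150 library above the scrambled RNA library of its own number. GBP2 (0.13 ± 0.22, limma adjusted p = 0.809), IRF1 (0.29 ± 0.22, adjusted p = 0.552) and RARRES3 (0.17 ± 0.23, adjusted p = 0.759) differed from scrambled RNA within the spread between libraries. The fit with the block called 11 members higher and none lower, against 4.11% of all tested genes called higher and 8.21% called lower. Here too the pairing criterion was not met in every number.

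The sign of the difference was divided among the members, with 35 positive and 21 negative. Of all tested genes 36.8% were positive. The 21 were IFIT2, IFIT5, IFITM1, OASL, DDX60, DHX58, HERC5, USP18, XAF1, EPSTI1, PARP14, DTX3L, SAMD9, SAMD9L, TRIM21, TRIM22, TRIM25, GBP1, EIF2AK2, ADAR and LGALS3BP, whose differences lay between -0.40 and -0.024. In 8 of them, among them SAMD9, TRIM22, TRIM25, PARP14 and EIF2AK2, the miR-150 libraries numbered 2 and 3 were above their scrambled RNA counterparts and the one numbered 4 below. IFIT2 and DHX58 were below scrambled RNA in all 3 numbers. The division followed single libraries. Without the miR-150 library numbered 4, 54 of the 56 differences were positive, against 52.6% of all tested genes, and the member median was 0.48. Without the one numbered 3, 9 were positive, against 32.2% of all tested genes, and the member median was -0.52. The median was 0.32 without the miR-150 library numbered 2. Without the scrambled RNA library numbered 3, 52 were positive with a median of 0.56. There were 20 with a median of -0.12 without the one numbered 2 and 18 with a median of -0.22 without the one numbered 4. Of all tested genes, 40.1%, 36.1% and 35.2% were positive in these fits, in that order. Each miR-150 library was above the scrambled RNA library of its number for 18 members, against 15.1% of all tested genes. With each library centred on its median gene, which removes the shift of all genes, 41 of the 56 differences were positive. In that fit 52.7% of all tested genes were positive.

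**Figure D4:**
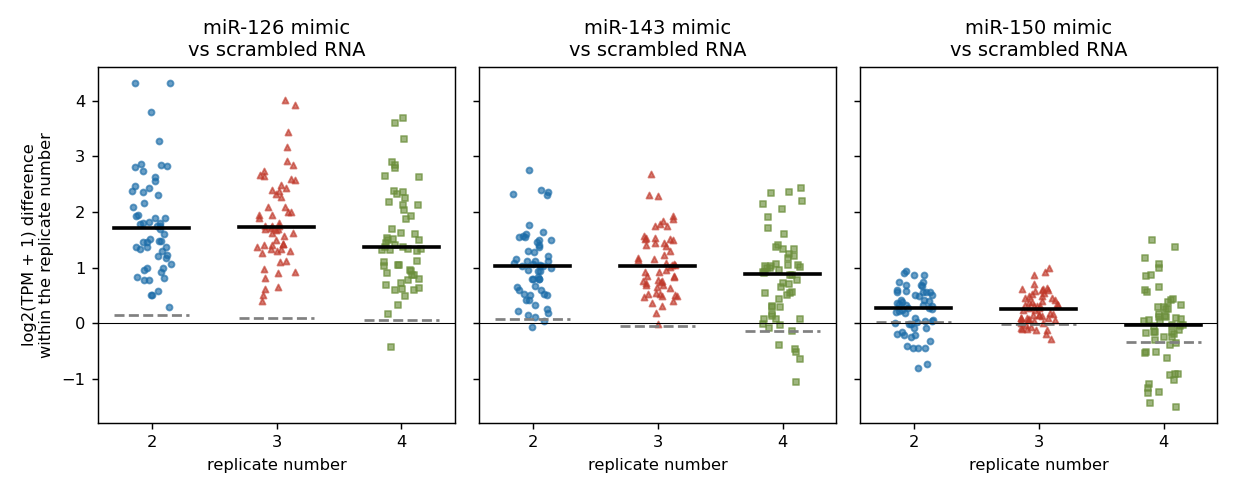
Difference of log2(TPM + 1) between each mimic library and the scrambled RNA library of the same number, each point being 1 of the 56 tested interferon-stimulated genes; black bars are medians over the members and dashed grey bars medians over all 13750 tested genes. The member medians are 1.72, 1.73 and 1.38 for the miR-126 mimic, 1.03, 1.03 and 0.88 for the miR-143 mimic and 0.27, 0.26 and -0.030 for the miR-150 mimic in the libraries numbered 2, 3 and 4.

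The mimics were also compared with each other. The miR-126 mimic was above the miR-143 mimic on average for 54 of the 56 members, against 69.0% of all tested genes. The median log2 difference over the members was 0.71 (-0.093 to 1.88), against 0.15 over all tested genes. No member passed the threshold in the limma fit by group, against 1.46% of all tested genes called higher and 1.05% called lower, and 1 had an unadjusted p under 0.05. RARRES3 was the only member without overlap between these mimics, against 19.2% of all tested genes, while 50 members were higher in the miR-126 library of each number, against 40.6% of all tested genes. With the replicate block, for which the numbers meet the pairing criterion in all 3 comparisons of mimics, 29 members were called higher and none lower, against 7.57% of all tested genes called higher and 3.45% called lower. That count was 14 to 20 when 1 library of these groups was left out, lowest without the miR-143 library numbered 4, and 1 without all libraries numbered 3. The median difference was 0.11 without the miR-126 library numbered 3, 0.32 without the miR-143 library numbered 4, 1.11 without the miR-126 library numbered 4 and 1.34 without the miR-143 library numbered 3.

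The miR-126 mimic was above the miR-150 mimic on average for all 56 members, against 75.1% of all tested genes. The median log2 difference over the members was 1.61 (0.052 to 3.10), against 0.22 over all tested genes. RARRES3 and GBP2 rose and no member fell, against 3.11% of all tested genes called higher and 0.8% called lower. RARRES3 had a log2 difference of 1.68 ± 0.23 (limma adjusted p = 0.00354) and passed without any one of the 6 libraries. GBP2 had 1.09 ± 0.22 (limma adjusted p = 0.0217) and passed in 2 of the 6 such fits, those without the miR-150 library numbered 3 (0.0469) and numbered 4 (0.0260), with 0.0551 to 0.106 in the other 4. All miR-126 libraries lay above all miR-150 libraries for 13 members, against 21.8% of all tested genes. With the replicate block 50 members rose and none fell, against 15.8% of all tested genes called higher and 3.06% called lower. Each miR-126 library was above the miR-150 library of its number for 53 members, against 44.8% of all tested genes. Without the block the count of 2 was 1 without any one of the miR-126 libraries or the miR-150 library numbered 2, 6 without the miR-150 library numbered 3 and 26 without all libraries numbered 3 (32 with the block). The median difference was 0.93 without the miR-126 library numbered 3. Without all libraries numbered 3, 55 of the 56 differences were positive, against 75.4% of all tested genes.

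The miR-143 mimic was above the miR-150 mimic on average for 55 of the 56 members, against 60% of all tested genes. The median log2 difference over the members was 0.78 (-0.0056 to 1.74), against 0.066 over all tested genes. No member passed in the limma fit by group, against 1.59% of all tested genes called higher and 0.604% called lower, and 6 had an unadjusted p under 0.05. With the replicate block 31 rose and none fell, against 7.06% of all tested genes called higher and 2.68% called lower. For 52 members the miR-143 library was above the miR-150 library of every number, against 30.2% of all tested genes. Groups did not overlap for 3 members, against 10.3% of all tested genes. The blocked count was 7 without all libraries numbered 3, and the median was 0.27 without the miR-143 library numbered 3, 0.43 without the miR-150 library numbered 4, 1.18 without the miR-143 library numbered 4 and 1.36 without the miR-150 library numbered 3. Within a number, the order miR-126 above miR-143 above miR-150 above scrambled RNA was found for 34 members in the libraries numbered 2, for 46 in those numbered 3 and for 24 in those numbered 4, against 9.85%, 7.05% and 4.42% of all tested genes.

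The library number went with large differences in the members. Over the 4 groups, with the group in the fit, 52 of the 56 members were higher in the libraries numbered 3 than in those numbered 2 (limma, adjusted over all genes) and none was lower, against 9.32% of all tested genes called higher and 7.78% called lower, with a median log2 difference of 1.32 (-0.40 to 4.24). Against the libraries numbered 4, 54 were higher and none lower, against 21.7% of all tested genes called higher and 8.17% called lower, with a median of 1.72 (-0.26 to 4.81) where all tested genes had 0.17. The exceptions were GBP2 and RARRES3, which did not pass in either comparison, and IFITM2 and XAF1, which did not pass against the libraries numbered 2. Between the libraries numbered 4 and 2 no gene passed of all 13750, 25 members had an unadjusted p under 0.05 and the median over the members was -0.33, against -0.16 over all tested genes. The excess of the libraries numbered 3 over those numbered 2 was present in every group, with medians over the members of 1.58 with the miR-126 mimic, 1.37 with the miR-143 mimic, 1.27 with the miR-150 mimic and 1.33 with scrambled RNA. Endothelial markers moved with the number as well: 7 of the 10 tested were lower in the libraries numbered 3 than in those numbered 2, with a median of -0.65, and their part in the result was not tested.

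Transcript values were deposited, so 2 genes with functionally distinct forms could be followed by form. OAS1 is made as p46, a protein of 400 residues that a lipid anchor attaches to membranes, and p42, of 364 residues, among others. The p46 transcript had 107, 294 and 79.7 TPM with the miR-126 mimic, 51.8, 229.9 and 56.5 TPM with the miR-143 mimic, 25.0, 105 and 22.6 TPM with the miR-150 mimic and 21.5, 74.7 and 20.5 TPM with scrambled RNA. The p42 transcript had 17.1, 52.4 and 15.96 TPM with the miR-126 mimic, 12.8, 42.3 and 8.30 TPM with the miR-143 mimic, 4.68, 19.5 and 2.26 TPM with the miR-150 mimic and 3.29, 14.0 and 4.15 TPM with scrambled RNA. The p46 transcript made up 58.8% of the OAS1 total over the 12 libraries, and each form was higher in the libraries numbered 3 of every group. ADAR has a short form, p110 (931 residues), from promoters that do not need interferon, and a long form, p150 (1226 residues), from an interferon-responsive promoter. The short form made up 71.3% of ADAR and the long form 7.08%. The short form had 104, 170.3 and 90.0 TPM with the miR-126 mimic, 102, 140.0 and 45.2 TPM with the miR-143 mimic, 78.6, 118 and 31.5 TPM with the miR-150 mimic and 69.4, 119 and 82.6 TPM with scrambled RNA. The long form had 6.87, 23.5 and 6.73 TPM with the miR-126 mimic, 15.4, 9.54 and 3.49 TPM with the miR-143 mimic, 12.2, 12.6 and 6.37e-10 TPM with the miR-150 mimic and 6.79, 12.1 and 5.09 TPM with scrambled RNA. The long form was highest in the miR-126 library numbered 3 and otherwise varied between libraries without separating the groups; such low transcript values are estimates shared out among overlapping transcripts. The ISG15 total came from a single transcript for 96.8% and that of IFIT1 for 99.0%.

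Genes upstream of the members were followed as lists. The 13 interferon ligand genes summed to at most 1.52 TPM in any library, with IFNB1, a type I interferon, at most 0.946 TPM. Both values were in the miR-126 library numbered 3. The sum was 0.434, 1.52 and 0.183 TPM with the miR-126 mimic and 0.312, 0.782 and 0.0662 TPM with miR-143. It was 0.239, 0.233 and 0.219 TPM with miR-150 and 0.190, 0.516 and 0.311 TPM with scrambled RNA. None of the ligand genes passed the filter on low values, and their part in the results was not tested. Of 15 genes of the receptors and their proximal signalling, 13 were tested and none passed in any of the 3 comparisons with scrambled RNA, with a median difference of 0.14 for the miR-126 mimic.

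Of 22 nucleic acid sensing genes that are no members, 17 were tested, with a median difference of 0.41 for the miR-126 mimic, and 1 was called higher in each of the 3 comparisons with scrambled RNA, TMEM173, which encodes the DNA-sensing adaptor STING. It had 117, 136 and 117 TPM with the miR-126 mimic, 112, 114 and 119 TPM with the miR-143 mimic, 144, 122 and 128 TPM with the miR-150 mimic and 86.0, 87.4 and 82.2 TPM with scrambled RNA. All mimic libraries lay above all scrambled RNA libraries, and the libraries numbered 3 stood out little. In the limma fit the log2 difference was 0.53 ± 0.10 for the miR-126 mimic (limma adjusted p = 0.0127), 0.43 ± 0.10 for the miR-143 mimic (adjusted p = 0.0418) and 0.61 ± 0.10 for the miR-150 mimic (adjusted p = 0.00703). Leaving out 1 library, the calls held in 3, 0 and 5 of the 6 fits for miR-126, miR-143 and miR-150: the adjusted p was 0.0526, 0.0563 and 0.0694 for the miR-126 mimic without its library numbered 3 or the scrambled RNA library numbered 2 or 4, 0.0921 to 0.187 for the miR-143 mimic in all 6, and 0.0523 for the miR-150 mimic without the scrambled RNA library numbered 4. With each library centred on its median gene the adjusted p was 0.165 for miR-126, 0.108 for miR-143 and 0.0183 for miR-150. With the block, 6 of the 17 were called higher with the miR-126 mimic, among them TLR3, MYD88, TMEM173, IFI16 and NLRC5.

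Markers of endothelial and of other cells also moved between the groups and the library numbers, and their part in the results on the members was not tested. The 10 leukocyte markers summed to 54.8, 73.4 and 56.2 TPM with the miR-126 mimic, 52.5, 66.8 and 50.3 TPM with the miR-143 mimic, 50.2, 62.4 and 31.6 TPM with the miR-150 mimic and 36.0, 51.4 and 33.6 TPM with scrambled RNA. The sum was higher than with scrambled RNA in every number with the miR-126 and the miR-143 mimics. With the miR-150 mimic it was higher in the numbers 2 and 3 and lower in the number 4. CD68, a lysosomal protein of macrophages and other cells, made most of it at 25.5 to 66.7 TPM. None of the 3 tested leukocyte markers passed in a comparison with scrambled RNA without the block. CD68 was called higher with the miR-126 mimic in the fit with the block, on which the count of 53 members rests (log2 difference 0.74 ± 0.29, limma adjusted p = 0.175, and 0.00941 with the block). CD68 was also called higher in the libraries numbered 3 than in those numbered 2 and 4. The T cell gene CD3E and LILRA4, a marker of the plasmacytoid dendritic cells that make much interferon, were at 0 in most libraries.

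The 10 endothelial markers summed to 1836, 1359 and 1873 TPM with the miR-126 mimic, 2219.6, 1388 and 1751 TPM with the miR-143 mimic, 1848, 1252 and 1105 TPM with the miR-150 mimic and 2006, 1638 and 2310.2 TPM with scrambled RNA. Without the block none was called with the miR-126 or the miR-143 mimic and 1, ENG, was lower with the miR-150 mimic. With the block CLDN5 was called higher and ENG lower with the miR-126 mimic. The sum over 10 genes of fibroblasts and pericytes was 76.7, 56.8 and 78.6 TPM with the miR-126 mimic, 64.5, 44.2 and 60.6 TPM with the miR-143 mimic, 52.0, 43.8 and 40.2 TPM with the miR-150 mimic and 119.9, 54.6 and 137 TPM with scrambled RNA. PDGFRA, DCN and LUM stayed below 1 TPM. COL1A2, a collagen gene, had 23.3, 3.48 and 28.6 TPM with the miR-126 mimic, 22.5, 3.32 and 28.5 TPM with the miR-143 mimic, 16.4, 3.55 and 18.0 TPM with the miR-150 mimic and 64.9, 8.65 and 80.1 TPM with scrambled RNA. Its values were low in the libraries numbered 3 of all groups, and under the scrambled RNA value of the same number with each mimic. None of the 6 tested passed without the block. With it COL1A2 was called lower and ACTA2 higher with the miR-126 mimic. In the libraries numbered 3 compared with those numbered 2 and 4, COL1A1 and COL1A2 were called lower and ACTA2 higher.

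The 8 epithelial markers summed to 524, 579.9 and 529 TPM with the miR-126 mimic, 730.1, 952 and 769 TPM with the miR-143 mimic, 901, 964 and 1024 TPM with the miR-150 mimic and 493, 634 and 446 TPM with scrambled RNA. Most of the sum came from KRT18, and CDH1 and KRT5 stayed below 1 TPM. KRT18, a keratin, had 492, 539 and 498 TPM with the miR-126 mimic, 697, 905 and 735 TPM with the miR-143 mimic, 853, 907 and 978 TPM with the miR-150 mimic and 457, 599 and 421 TPM with scrambled RNA. All miR-143 and miR-150 libraries lay above all scrambled RNA libraries. The miR-126 libraries overlapped with those of scrambled RNA. Of the 3 epithelial markers tested, KRT18 alone was called without the block, higher with the miR-143 mimic (0.67 ± 0.14 on the log2 scale, limma adjusted p = 0.0250) and with the miR-150 mimic (0.90 ± 0.14, adjusted p = 0.00522).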

How the data were processed

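RNA from 12 libraries of HMEC-1 cells was measured by sequencing. The authors deposited 1 table of TPM per transcript with gene symbols. The submitters' processing notes name FastQC, kallisto and sleuth, without version, and the builds hg38 and GRCh38; what each did, the read filters and the strand setting are not recorded in the notes or labels used here. The TPM that the authors deposited share the reads of overlapping transcripts by estimate and carry no depth, so a gene's precision is known only from the spread between libraries, and a large change in some genes moves all others. The labels' protocol speaks of miRNA libraries, while the table holds 187626 transcripts of annotated genes; 171 transcripts without a gene were left out.

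TPM were summed per symbol. Symbols reaching 1 TPM in 3 or more libraries were tested as log2(TPM + 1) with limma 3.58.1 in R 4.3.3 (empirical Bayes with a trend, two-sided, Benjamini-Hochberg over all 13750, threshold 0.05), with all 12 libraries and the group as the only term; fold changes on this scale understate the change of low genes. Tables were handled in Python 3.11.15 with pandas 2.3.3, and the procedure was tested on simulated data. Differences between library numbers were fitted with group and number as terms. Same-numbered libraries were taken as paired where, over all tested genes, their deviations from the group means correlated above 0.1 for every number. These correlations for the numbers 2, 3 and 4 were 0.289, 0.634 and 0.401 between the miR-126 mimic and scrambled RNA, 0.321, 0.664 and 0.365 between miR-126 and miR-143, 0.291, 0.547 and 0.284 between miR-126 and miR-150 and 0.586, 0.634 and 0.737 between miR-143 and miR-150, so blocked values stand beside those results. The pairing comes from this check and not from the labels. The comparisons of the miR-143 and miR-150 mimics with scrambled RNA did not meet it for every number. Their libraries numbered 3 did correlate, at 0.650 and 0.604.

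The members, gene lists and tests were chosen with earlier results of these data known. Genes described in full are those past the threshold in a comparison with scrambled RNA, the most abundant member of each role and the one with the largest miR-126 difference, and those whose sign went against the median; others are given by range or by libraries. TMEM173 and the cell type markers described singly were chosen after their values were seen. MB21D1 was not analysed here. Alternatives varied the pseudocount, the filter on low values, the scaling, the block, the groups in the fit and the libraries.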

Additional observations from a re-analysis of the deposited data

How the results depend on the processing

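TPM carry no read depth, and 3 libraries in each group with a large difference between library numbers limit every comparison. Set against scrambled RNA, neither the miR-143 nor the miR-150 mimic met the pairing criterion in every number. The miR-143 correlations were 0.0438 in number 2, 0.650 in number 3 and 0.174 in number 4. Those of miR-150 were 0.0726 in number 2, 0.604 in number 3 and 0.0747 in number 4. The libraries numbered 3 thus did correlate, and number 2 fell under 0.1 with both mimics. Against scrambled RNA, the replicate block called 36 members higher with miR-143 and 11 with miR-150. Of all tested genes, 7.04% and 4.11% were called higher. With the block, 53 members were called higher for miR-126 against scrambled RNA and 29 for miR-126 against miR-143. There were 50 for miR-126 against miR-150 and 31 for miR-143 against miR-150. The shares of all tested genes called higher were 11.8%, 7.57%, 15.8% and 7.06% in that order. Leaving out 1 library with the block gave 6 to 8 for miR-150 against scrambled RNA and 14 to 20 for miR-126 against miR-143. No member was called lower under the block in any of the 6 comparisons. Of the cell type markers, the block called CLDN5 and IL3RA higher and COL1A2 lower with miR-143, and CLDN5 and KRT8 higher and CDH5 and COL1A2 lower with miR-150 against scrambled RNA, beside those also called without it. The causes of the changes below were not tested. For the member counts below, and for those without 1 library above, the share of all tested genes called is not given. They have no background beside them and describe the fits, not the members alone.

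The following block combinations and the blocked fits without 1 library were chosen after seeing the data. With the block and without the miR-143 and miR-150 libraries numbered 4, the counts of members higher were 55 with miR-126, 41 with miR-143 and 12 with miR-150 against scrambled RNA, 33 for miR-126 against miR-143 (median 0.62), 53 for miR-126 against miR-150 (median 1.58) and 36 for miR-143 against miR-150; there the difference from scrambled RNA was 0.14 for EIF2AK2 with miR-143 and -0.0068 for RARRES3 with miR-150, both of opposite sign. With the block and without all libraries numbered 3, the counts were 34 with miR-126, 20 with miR-143 and 3 with miR-150 against scrambled RNA, 1 for miR-126 against miR-143, 32 for miR-126 against miR-150 (median 1.57) and 7 for miR-143 against miR-150, and XAF1 was at -0.068 with miR-126. Without the block and without the libraries numbered 3, they were 31 with miR-126, 17 with miR-143 and 2 with miR-150 against scrambled RNA, 26 for miR-126 against miR-150 (median 1.57) and 5 for miR-143 against miR-150, with XAF1 again at -0.068.

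With no filter on low values 2 members were higher with miR-126 and 0 with miR-143 against scrambled RNA and 1 with miR-126 against miR-150, and the median for miR-126 against miR-143 was 0.69. At a minimum of 5 TPM the count for miR-126 against miR-143 was 1, and the median for miR-126 against miR-150 was 1.65. With a pseudocount of 0.1 the medians were 1.03 for miR-143 against scrambled RNA, 1.76 for miR-126 against miR-150 and 0.73 when that mimic was set against miR-143. Centred libraries gave medians of 0.52 for miR-126 against miR-143 and, against miR-150, of 1.34, with 1 member higher in that comparison. Quantile normalization called 8 members higher with miR-126 against scrambled RNA, 1 with miR-126 against miR-150 and 1 lower in the libraries numbered 3 than in those numbered 4, with medians of 0.63 for miR-126 against miR-143, 1.34 for miR-126 against miR-150 and 0.69 for miR-143 against miR-150. Fitting 2 groups alone called no member (0) for miR-143 against scrambled RNA or miR-126 against miR-150 and 1 for miR-126 against miR-143.

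Leaving out libraries (1 at a time, or the miR-143 and miR-150 libraries numbered 4 together) gave counts of members higher of 1 to 9 for miR-126 and 0 to 4 for miR-143 against scrambled RNA and 1 to 6 for miR-126 against miR-150. The medians ranged from 1.02 to 2.05 for miR-126, 0.45 to 1.42 for miR-143 and -0.52 to 0.56 for miR-150 against scrambled RNA, from 0.11 to 1.34 for miR-126 against miR-143, 0.93 to 2.10 for miR-126 against miR-150 and 0.27 to 1.36 for miR-143 against miR-150. XAF1 ranged from -0.064 to 1.08 with miR-126 and from -0.36 to 0.18 with miR-143, EIF2AK2 from -0.70 to 0.33 with miR-143 and RARRES3 from -0.020 to 0.35 with miR-150. Of the members, 1 was lower in the libraries numbered 3 than in those numbered 2 without the miR-143 and miR-150 libraries numbered 4. RARRES3 with the miR-126 mimic against scrambled RNA passed the threshold under every alternative run.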
